A study of Mus musculus with 5 samples.

Results

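Type I interferon-stimulated genes are transcripts that cells switch on when an interferon of the alpha or beta type binds its receptor, and 40 of them, chosen by name, were followed here among the 24982 rows of the authors' deposited table. They were grouped by family and role into 8 subgroups (Ifit, Oas, sensors, Ifi200, Slfn, Parp, the Isg15 system and other effectors). Each of the 40 symbols stood alone on 1 row, and 39 were tested by the authors; Ifi44l was not. The samples were macrophages taken from mouse fibrosarcomas of the 9609 line, labelled MCA after what is commonly the inducing carcinogen, methylcholanthrene. The MEK1-hi group (3 libraries) carries that name for its tumor line, its genotype and its treatment, which the labels give as exosomes. Exosomes are small vesicles shed by cells. The MEK1-low group (2 libraries) is named in the same way, and its exosomes bear the added note GFP. MEK1, encoded by Map2k1, is the kinase that phosphorylates ERK. The labels do not give the mouse strain, the animals' age, how the macrophages were sorted, or whether libraries came from separate animals. The p and q values therefore measure only the spread between these libraries, which may be technical. Which group is the rejecting and which the growing tumor of the series title is not stated either.

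In the canonical pathway, interferon-alpha or interferon-beta binds the receptor made of Ifnar1 and Ifnar2, and the kinases Jak1 and Tyk2 signal to a complex with Stat2 and Irf9 that binds interferon-stimulated response elements in promoters. Interferon-gamma works mainly through gamma-activated sites, and many type I interferon-stimulated genes also respond to it. The products block viral replication, sense foreign nucleic acid, or restrain the response itself, and in tumors such genes are read as a trace of interferon acting on macrophages.

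None of the 39 tested genes differed between the groups at a q (the Benjamini-Hochberg adjusted p) under 0.05 in the authors' deposited table, where 1.32% of all 12311 tested rows did. Their log2 fold changes, MEK1-hi over MEK1-low, ran from -0.69 for Slfn4 to 0.64 for Zbp1, with a median of 0.16, against -0.02 over all tested rows. Above 0 lay 27 of the 39 (69.2%), where 46.2% of all tested rows did. That direction depends on the scale: if both groups are set to the same FPKM sum, every log2 fold change drops by 0.13. The members' median becomes 0.027 and that of all tested rows -0.15. Above 0 then lie 21 of the 39 (53.8%), beside 27.1% of all tested rows. The shift is the same for every row, so it leaves the members' place among the rows unchanged. With the median of all rows set to 0 instead, 29 (74.4%) lie above 0, beside 49.5% of all tested rows. FPKM (fragments scaled to transcript length and to depth) takes transcript length into account, so its levels can be compared between genes. Without adjustment, 2 members had a p under 0.05 with a higher value in MEK1-hi (Zbp1 and Ifi205) and 1 with a lower value (Slfn4) in the authors' deposited table. Together they are 7.69% of the members beside 6.08% of all tested rows (3.5% higher and 2.58% lower), a share near the background. The absolute log2 fold change passed 0.5 in 5 of the 39 members, Zbp1, Ifi205, Parp9, Slfn1 and Slfn4, and in 13.2% of all tested rows. Among the 7989 tested rows with a mean FPKM in the members' range, 604 passed it. A missed threshold does not show that the levels were equal. In the members' range of mean FPKM, 5.18 to 468.7, the smallest difference called in the authors' deposited table was 0.82 on the log2 scale, and no member reached it.

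**Figure D1:**
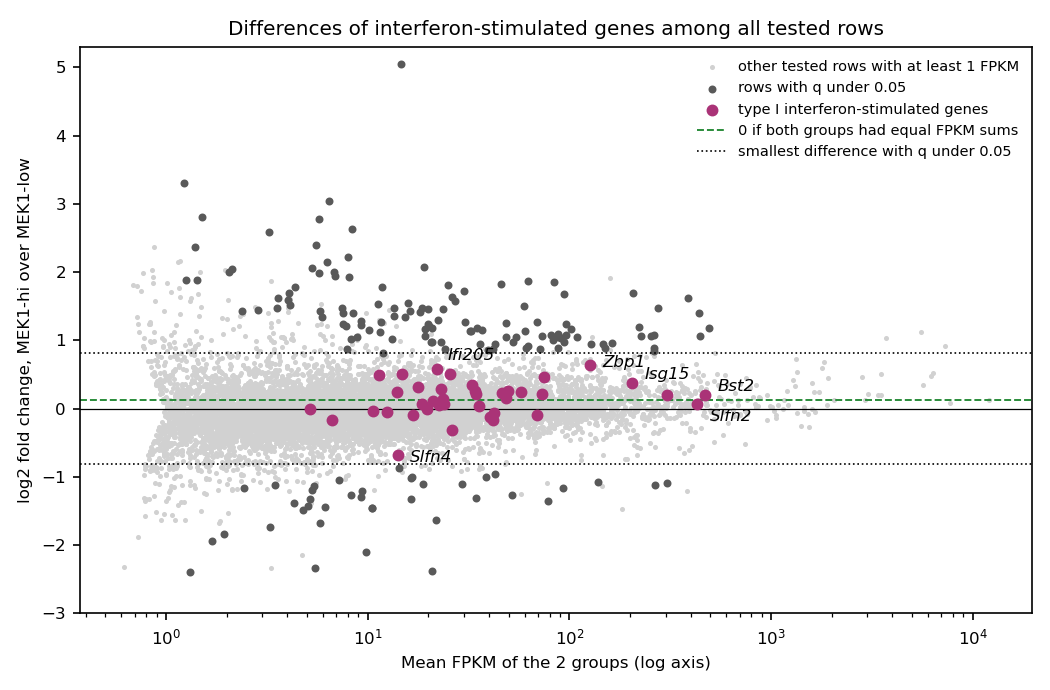
Log2 fold change (MEK1-hi over MEK1-low) against the mean FPKM of the groups on a log axis, 1 point per tested row with at least 1 FPKM in a group. The 39 interferon-stimulated genes lie between -0.69 and 0.64, inside the dotted lines at the smallest called difference of 0.82 in either direction, and the dashed line marks where 0 would lie with equal FPKM sums (0.13).

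The promoters of several of these genes show the element through which type I interferon acts, and the sequences are given to set that shared feature beside the measured values. RefSeq promoter windows (GRCm38.p6, the assembly named mm10 in the submitters' processing notes) run from 250 bases before the transcription start to 50 after it, and 28 of the 40 genes matched by symbol. The core of the response element was searched as GAAA, then any 2 bases, then GAAA, on both strands, and the core of the gamma-activated site as TTCNNNGAA, which reads the same on both strands. Positions count from the start, so that -1 is the last base before it. In the lines below, each from 200 bases to 1 base before the start and 5′ to 3′ on the strand of the gene, capitals mark the matches of either core. On the opposite strand the response element core reads as its complement, with the bases TTTC at each end.
Ifit1: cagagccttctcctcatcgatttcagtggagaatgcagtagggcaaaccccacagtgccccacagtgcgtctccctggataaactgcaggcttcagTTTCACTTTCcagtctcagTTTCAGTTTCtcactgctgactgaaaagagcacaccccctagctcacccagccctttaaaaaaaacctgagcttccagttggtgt
Ifit3: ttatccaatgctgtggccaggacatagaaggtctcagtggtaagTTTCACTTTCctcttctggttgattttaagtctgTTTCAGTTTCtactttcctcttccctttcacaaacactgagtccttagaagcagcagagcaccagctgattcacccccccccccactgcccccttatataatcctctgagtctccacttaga
Ifit3b: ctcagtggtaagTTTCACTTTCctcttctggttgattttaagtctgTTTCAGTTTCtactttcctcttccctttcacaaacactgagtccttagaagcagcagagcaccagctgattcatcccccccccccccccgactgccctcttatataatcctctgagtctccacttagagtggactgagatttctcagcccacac
Isg15: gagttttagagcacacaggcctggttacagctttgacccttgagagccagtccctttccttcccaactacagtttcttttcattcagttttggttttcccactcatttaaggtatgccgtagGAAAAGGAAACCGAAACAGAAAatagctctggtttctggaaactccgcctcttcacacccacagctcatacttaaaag
Oas1a: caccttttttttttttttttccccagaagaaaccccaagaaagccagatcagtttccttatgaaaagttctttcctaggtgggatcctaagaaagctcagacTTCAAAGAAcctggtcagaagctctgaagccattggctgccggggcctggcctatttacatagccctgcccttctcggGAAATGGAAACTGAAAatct
Bst2: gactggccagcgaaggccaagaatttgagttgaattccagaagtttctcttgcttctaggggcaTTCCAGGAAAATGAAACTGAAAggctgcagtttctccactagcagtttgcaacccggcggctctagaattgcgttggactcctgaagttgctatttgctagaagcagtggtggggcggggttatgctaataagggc
Ifi205: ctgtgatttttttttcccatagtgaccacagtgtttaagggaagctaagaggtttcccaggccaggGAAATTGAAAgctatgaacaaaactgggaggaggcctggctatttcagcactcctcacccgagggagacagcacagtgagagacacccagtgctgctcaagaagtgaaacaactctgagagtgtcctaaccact
These are chr19:34640689-34640888 (plus strand), chr19:34583329-34583528 (plus), chr19:34607757-34607956 (plus), chr4:156200819-156201018 (minus), chr5:120907526-120907725 (minus), chr8:71537473-71537672 (minus) and chr1:174031756-174031955 (minus). Ifit1, Ifit3 and Ifit3b each hold 2 matches on the opposite strand. Their first bases lie 34 bases apart in both Ifit3 and Ifit3b, at -156 and -122 and at -188 and -154, and 19 bases apart in Ifit1, at -104 and -85. Isg15 holds a run of 3 overlapping matches that begins at -78. Bst2 holds 2 overlapping matches from -130, and a gamma-activated site core from -136 that overlaps the first of them. Oas1a holds 2 overlapping matches from -20, close to the start, and a gamma-activated site core from -98. Ifi205 holds 1 match from -134 and another from 23, beyond the printed stretch.

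The response element core was found in 15 of the 28 genes (53.6%), beside 3.99% of the 27025 genes of the whole promoter table. The gamma-activated site core was found in 5 of 28 (17.9%), beside 9.55%, and 2 genes, Oas1a and Bst2, held both. The 15 genes with the response element core had log2 fold changes from -0.17 to 0.59 with a median of 0.06. The 12 tested genes whose window held none had a median of 0.24, from -0.69 to 0.51. Of the interferon-gamma induced genes set beside them below, 9 of 12 with a window held the response element core and 6 the gamma-activated site core. For comparison, 2 genes that were called higher in MEK1-hi are shown, Socs1, an inhibitor of interferon receptor signaling, and Gbp2, a guanylate-binding protein.
Socs1: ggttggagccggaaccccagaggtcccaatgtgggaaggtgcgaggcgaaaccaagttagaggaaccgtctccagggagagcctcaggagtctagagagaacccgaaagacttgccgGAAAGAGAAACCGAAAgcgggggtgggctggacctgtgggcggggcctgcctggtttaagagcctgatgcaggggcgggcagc
Gbp2: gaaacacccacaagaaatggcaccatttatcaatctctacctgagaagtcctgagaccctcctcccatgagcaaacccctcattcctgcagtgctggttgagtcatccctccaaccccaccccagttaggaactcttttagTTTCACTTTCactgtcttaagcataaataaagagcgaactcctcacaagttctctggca
They are chr16:10785537-10785736 (minus) and chr3:142620463-142620662 (plus). Socs1 holds 2 overlapping matches from -83, and Gbp2 holds 1 from -59. The same letters thus stood before genes that were called and genes that were not. A match is a description of the sequence, not a bound site, and no match says only that these letters are not in this window.

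**Figure D2:**
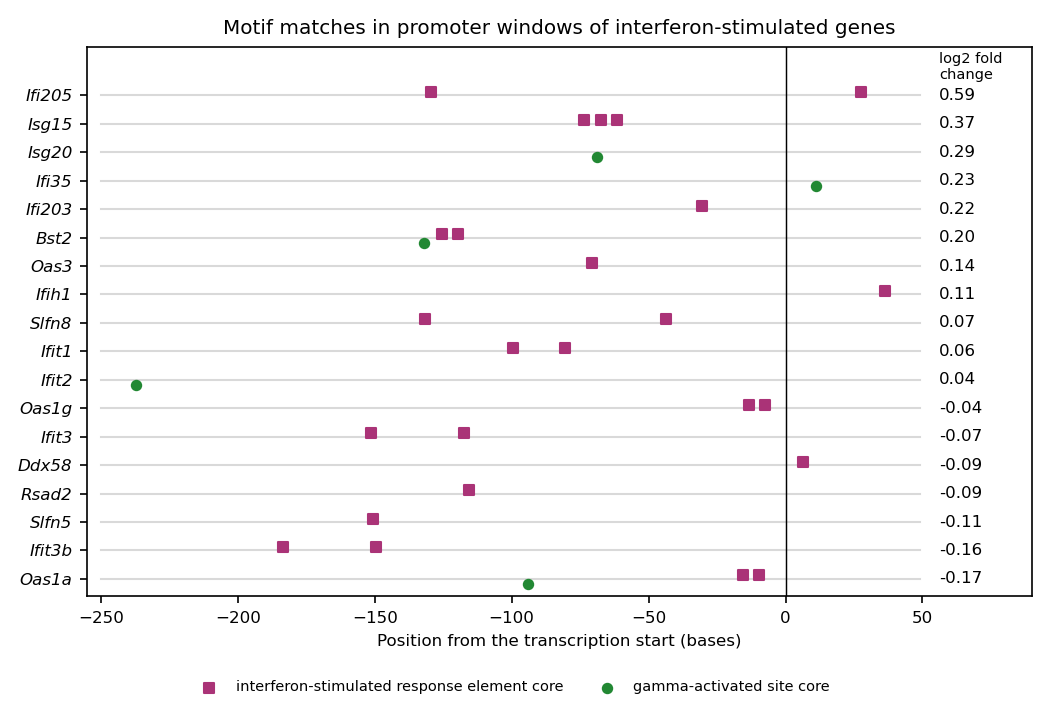
Positions of motif matches in the promoter windows of the 18 interferon-stimulated genes that hold any, in bases from the transcription start, with squares for the response element core and circles for the gamma-activated site core. Genes are ordered by their log2 fold change (MEK1-hi over MEK1-low, right), and genes with squares stand at both ends of the order. For Slfn8 the squares mark the same genomic site, counted from the starts of 2 RefSeq windows.

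The authors pooled each group into 1 value, so levels are given per group and without an SD. Pairs of values are in the order MEK1-low, MEK1-hi. Transcripts of these genes were abundant in both groups. Of the 39 tested genes, 5 had a mean FPKM of 100 or more, 32 lay between 10 and 100, and 2 lay under 10. The 4 most abundant, Bst2, Slfn2, Ifi27l2a and Isg15, made up 55.0% of the summed FPKM of all 40 genes in MEK1-low and 54.8% in MEK1-hi. The sum over all 40 was 2396 FPKM in the MEK1-low group and 2731 in the MEK1-hi group, a ratio of 1.14. The same ratio (MEK1-hi over MEK1-low) for the sum over all tested rows was 1.095. On the log2 scale these ratios are 0.19 and 0.13. In bulk RNA, fewer expressing cells and less RNA per cell cannot be told apart.

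**Figure D3:**
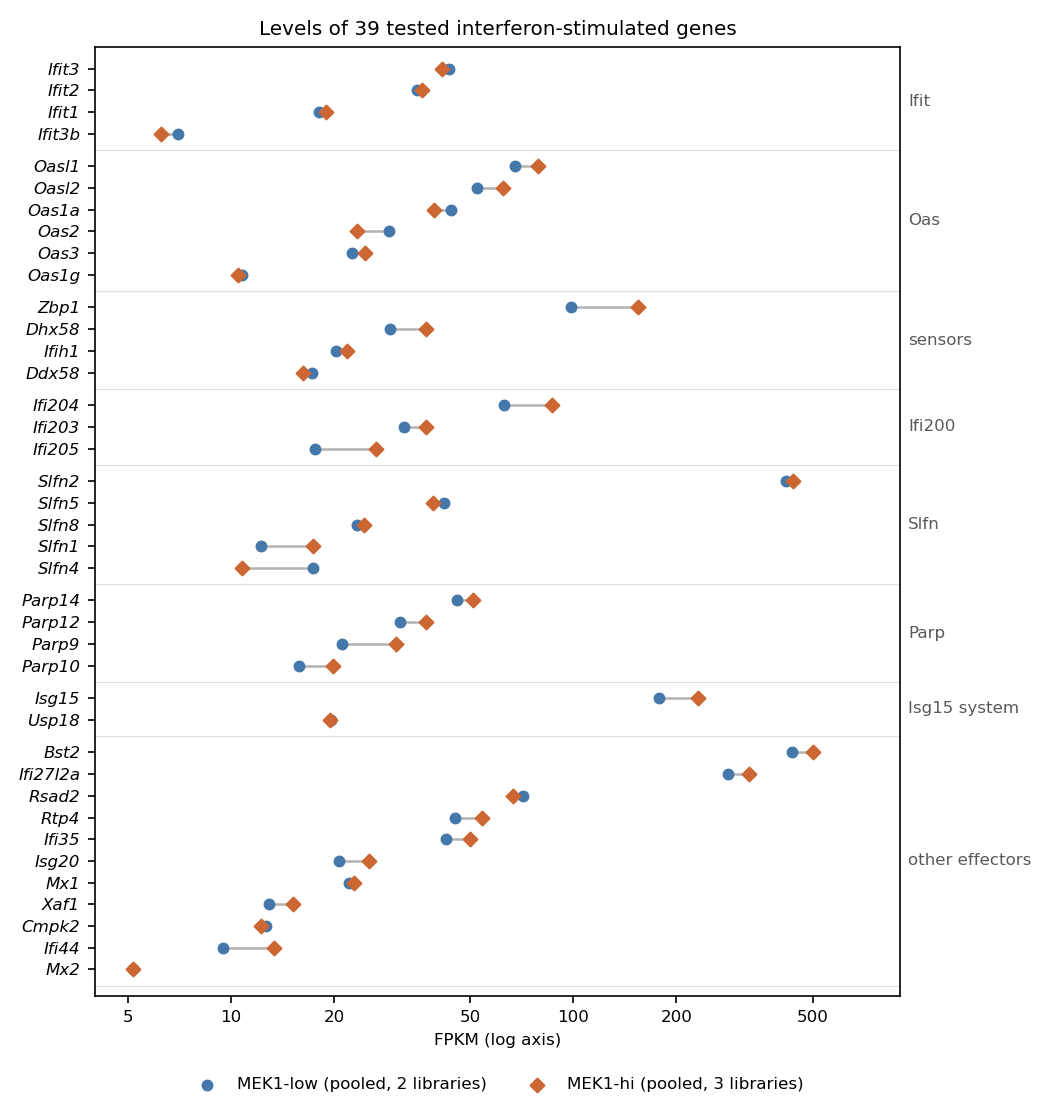
FPKM of the 39 tested interferon-stimulated genes on a log axis, by subgroup, with circles for the pooled MEK1-low value and diamonds for the pooled MEK1-hi value. Symbols of 1 gene lie close together beside the range between genes, from Mx2 at 5.19 and 5.16 FPKM to Bst2 at 437 and 501, and the widest gaps on this axis are those of Slfn4, Zbp1 and Ifi205.

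The Ifit genes, whose proteins bind the ends of viral RNA, had close values in the groups. The 4 genes lie within mm10 chromosome 19, 34550694 to 34650009. In MEK1-low and MEK1-hi, Ifit1 had 18.1 and 18.9 FPKM, the highest log2 fold change of the family at 0.06 (statistic 0.16, p = 0.796, q = 0.9998 in the authors' deposited table). Ifit2 had 34.9 and 36.0. Ifit3, the most abundant, had 43.2 and 41.3 (-0.07, statistic -0.18, p = 0.781, q = 0.9998 in the authors' deposited table). Ifit3b had 7.01 and 6.26, the lowest log2 fold change at -0.16 (statistic -0.32, p = 0.606, q = 0.9998 in the authors' deposited table). All 4 lay within 0.2 of 0, as did 56.2% of tested rows and 64.5% of those in the members' range of mean FPKM. The median log2 fold change of the family was -0.01. It was -0.14 with equal FPKM sums and 0.01 with the median of all tested rows set to 0, so it has no stable sign. With equal FPKM sums the median of all tested rows was itself -0.15. The value of 1 gene cannot be fully separated from that of its copy: 31.7% of the 100-base windows of the Ifit3 transcript also occur in Ifit3b. The sum of both was 50.2 FPKM in the MEK1-low group and 47.5 in the MEK1-hi group.

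The Oas genes encode sensors of double-stranded RNA, most of which make the messenger that activates RNase L. They divided into those higher and those lower, none past the test. Oas2 had 28.9 FPKM in the MEK1-low group and 23.3 in the MEK1-hi group, the lowest log2 fold change of the family at -0.31 (statistic -0.85, p = 0.182, q = 0.9998 in the authors' deposited table). Oas1a had 44.1 and 39.1 FPKM, and Oas1g 10.8 and 10.5. Oas3 had 22.5 and 24.7. The Oasl pair lies apart from these genes on chromosome 5 (114896934 to 114937911, against 120730333 to 120907525 for the others). Oasl1, which lacks synthetase activity and was the most abundant of the 6, had 67.7 and 79.0 FPKM (log2 fold change 0.22, statistic 0.60, p = 0.348, q = 0.9998 in the authors' deposited table). Oasl2 had 52.3 and 62.3, the largest log2 fold change of the family at 0.25 (statistic 0.69, p = 0.286, q = 0.9998 in the authors' deposited table). The family's median log2 fold change was 0.05, and it turned to -0.08 with equal FPKM sums, where that of all tested rows was -0.15. Oas1a shares 40.9% of its 100-base windows with Oas1g, and the sum of both was 54.8 FPKM in the MEK1-low group and 49.6 in the MEK1-hi group.

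Of the 4 sensors, Zbp1 had the largest log2 fold change. No sensor was called in the authors' deposited table, where 1.32% of all tested rows were. Zbp1, which binds nucleic acid in the Z form and can trigger necroptosis, had 98.7 FPKM in the MEK1-low group and 154 in the MEK1-hi group. This 1.56-fold difference was the largest positive one of all members (log2 fold change 0.64, statistic 1.48), and with p = 0.0219 and q = 0.536 in the authors' deposited table it was not called. Zbp1 lies on chromosome 2, 173206612 to 173218922, and shares none of its 100-base windows with another gene. The RNA helicases had smaller differences. Ddx58, which encodes RIG-I, had 17.3 FPKM in the MEK1-low group and 16.2 in the MEK1-hi group (log2 fold change -0.09, statistic -0.25, p = 0.694, q = 0.9998 in the authors' deposited table). Ifih1, which encodes MDA5, had 20.3 and 21.9. Dhx58, which encodes the regulator LGP2, had 29.0 and 37.0, a log2 fold change of 0.35. All 4 kept the sign of their log2 fold change with equal FPKM sums except Ifih1, which went from 0.11 to -0.02.

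The Ifi200 genes, which encode DNA-binding proteins with a HIN domain, had the highest median of the subgroups, 0.46, or 0.33 with equal FPKM sums. All 3 were higher in MEK1-hi under each scaling, and 0 of the 3 were called in the authors' deposited table. Ifi204, the most abundant, had 62.8 FPKM in the MEK1-low group and 86.5 in the MEK1-hi group (log2 fold change 0.46, statistic 1.25, p = 0.0528, q = 0.837 in the authors' deposited table). Ifi205 had 17.6 and 26.5 (0.59, statistic 1.38, p = 0.0346, q = 0.684 in the authors' deposited table). Ifi203 had 31.9 and 37.1 (0.22, statistic 0.57, p = 0.37, q = 0.9998 in the authors' deposited table). The members lie on chromosome 1 between 173747294 and 174031755, together with 3 other rows. Of these, Mndal had 35.7 FPKM in the MEK1-low group and 48.8 in the MEK1-hi group, Ifi211 had 21.4 and 27.6, and Ifi202b had 1.03 and 0.525. These genes share sequence: 41.5% of the 100-base windows of Ifi205 also occur in Ifi211, as do 15.1% of those of Ifi204. Ifi204 also shares windows with Mndal and with Ifi207, the most abundant gene of the family, which had 168 and 160 FPKM (log2 fold change -0.07). The sum of Ifi204, Ifi205, Ifi211 and Mndal was 138 and 189 FPKM, a log2 ratio of 0.46, and with Ifi207 added it was 306 and 350, a log2 ratio of 0.20. Ifi213, another paralog, had 33.7 and 30.8 FPKM. Over the 7 tested paralogs outside the members the median log2 fold change was 0.11, with 4 above 0 and 3 below, and it turned to -0.02 with equal FPKM sums.

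The Slfn genes, a family tied to growth control and defense in lymphoid and myeloid cells, held the members' lowest log2 fold change and also one above 0.5, from neighboring loci. Slfn4 had 17.4 FPKM in the MEK1-low group and 10.8 in the MEK1-hi group, 1.61-fold lower in MEK1-hi (log2 fold change -0.69, statistic -1.79). With p = 0.00685 it had the smallest p of all members in the authors' deposited table, and with q = 0.259 it was not called. Its neighbor Slfn1 had 12.2 and 17.4 FPKM (log2 fold change 0.51, statistic 1.19, p = 0.0623, q = 0.881 in the authors' deposited table). Slfn2, the most abundant of the family and next in line on the chromosome, had 420 and 439 (0.06, statistic 0.15, p = 0.814, q = 0.9998 in the authors' deposited table). Slfn8 had 23.4 and 24.4 FPKM, and Slfn5 42.0 and 38.8. The authors' loci of the 5 members lie on chromosome 11 between 82911253 and 83190216, and the wider family reaches beyond that range. Of the paralogs outside the members, Slfn10-ps had 8.02 FPKM in the MEK1-low group and 4.96 in the MEK1-hi group (log2 fold change -0.69, p = 0.0212, q = 0.524 in the authors' deposited table). Slfn3 had 3.42 and 2.97, and Slfn9 5.31 and 4.98. The family's median of 0.06 became -0.07 with equal FPKM sums, while Slfn1 and Slfn4 kept their signs. Slfn4 shares 0.285% of its 100-base windows with other genes.

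The Parp genes encode ADP-ribosyltransferases, and all 4 were higher in MEK1-hi under each scaling, with 0 called in the authors' deposited table. Parp9 had 21.2 FPKM in the MEK1-low group and 30.2 in the MEK1-hi group (log2 fold change 0.52, statistic 1.03, p = 0.116, q = 0.9998 in the authors' deposited table). Dtx3l, which encodes the ubiquitin ligase that pairs with Parp9, is no member but shares the authors' locus with it (chromosome 16, 35926515 to 35972621), and had 12.0 and 17.2 FPKM, a log2 fold change of 0.51. Parp14, the most abundant, had 45.6 and 50.9 (0.16, statistic 0.41, p = 0.514, q = 0.9998 in the authors' deposited table). Parp10 had 15.8 and 19.8, and Parp12 31.2 and 37.2. The subgroup's median was 0.29, or 0.16 with equal FPKM sums. Among 10 other genes of the Parp family the median was 0.12, or -0.01 with equal sums.

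Isg15 is a small protein that is attached to others as ubiquitin is, and Usp18 removes it and also damps the receptor. Isg15 had 178 FPKM in the MEK1-low group and 231 in the MEK1-hi group (log2 fold change 0.37, statistic 1.01, p = 0.113, q = 0.9998 in the authors' deposited table). Usp18 had 19.7 and 19.5 (-0.01, statistic -0.03, p = 0.966, q = 0.9998 in the authors' deposited table). The enzymes that attach Isg15, from the list of other pathway genes, were higher without a call: Uba7 had 27.3 and 36.5 FPKM, Ube2l6 47.7 and 65.8, and Herc6 9.48 and 11.6. Their log2 fold changes, from 0.28 to 0.47, stayed above 0 under each scaling.

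The other effectors also had 0 of 11 tested genes called in the authors' deposited table, where 1.32% of all tested rows were. Bst2, which tethers budding virus to the membrane, had 437 FPKM in the MEK1-low group and 501 in the MEK1-hi group, the highest level of all members (log2 fold change 0.20, statistic 0.52, p = 0.421, q = 0.9998 in the authors' deposited table). Ifi27l2a had 284 and 326 FPKM. The antiviral enzyme gene Rsad2 and its neighbor Cmpk2, a nucleotide kinase, lie within 37095 bases on chromosome 12 (26442743 to 26479837). Rsad2 had 71.2 and 66.6 FPKM, the lowest log2 fold change of this subgroup at -0.09 (statistic -0.25, p = 0.688, q = 0.9998 in the authors' deposited table), and Cmpk2 had 12.7 and 12.3. The dynamin-like GTPase genes Mx1 and Mx2 had 22.1 and 22.9, and 5.19 and 5.16 FPKM. Ifi44 had 9.46 and 13.4 FPKM, the largest of the subgroup at 0.50 (statistic 1.19, p = 0.0688, q = 0.906 in the authors' deposited table). Its neighbor Ifi44l was listed at 0 in MEK1-low and at 0.0126 in MEK1-hi and was not tested. The exonuclease gene Isg20 had 20.7 and 25.3 FPKM, Xaf1, a promoter of apoptosis, 12.9 and 15.2, Rtp4 44.98 and 54.1, and Ifi35 42.4 and 49.8. The median of the 11 was 0.20, or 0.07 with equal FPKM sums.

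The rest of the type I pathway was described from a list of 105 further genes, of which 79 were tested. In the authors' deposited table, 2 of these were called higher and 0 lower, 2.53% of the list beside 0.999% of all tested rows called higher. The ligands were at the bottom of the scale. Of 18 type I interferon genes, 12 were listed at 0 in both groups, only Ifnb1 was tested, and no untested one exceeded 0.129 FPKM. Ifnb1, which encodes interferon-beta, had 1.23 FPKM in the MEK1-low group and 2.62 in the MEK1-hi group (log2 fold change 1.09, statistic 1.17, p = 0.0736, q = 0.94 in the authors' deposited table). The receptor genes had close values, 56.8 and 57.2 FPKM for Ifnar1 and 99.1 and 117 for Ifnar2. The kinase genes Jak1 and Tyk2 had 52.8 and 52.6, and 14.5 and 17.3.

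Of the transcription factors, Stat2 had 25.0 and 35.8 FPKM on a row shared with Apof (0.51, p = 0.0275, q = 0.607 in the authors' deposited table). Irf9 had 31.2 and 38.9 FPKM. Irf7, the factor that amplifies interferon production, had 268 and 299. Socs1 rose 2.45-fold, from 12.96 to 31.8 FPKM (statistic 2.89, p = 5e-05, q = 0.00676 in the authors' deposited table). The other called gene was Ifitm1, of a family that hinders virus entry, which rose 2.05-fold, from 59.5 to 122 FPKM (statistic 2.43, p = 1e-04, q = 0.0118 in the authors' deposited table). The more abundant Ifitm3 had 744 and 947 FPKM, and Ifitm2 608 and 655.

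Without adjustment, 14 of the 79 had a p under 0.05 and a higher value in MEK1-hi, and 1, Slfn10-ps, a lower one in the authors' deposited table, together 19.0% beside the background of 6.08%. Besides the 2 called genes and Stat2, the higher ones included nucleic acid effectors. Samhd1, which depletes nucleotides, had 113 and 205 FPKM. Eif2ak2, which encodes PKR, had 51.6 and 78.9 on a row shared with Gm6548, and Aim2, which senses DNA in the cytosol, 10.7 and 16.3. Sting1, the adaptor of cytosolic DNA sensing, had 58.6 and 81.3 FPKM. Cgas, which makes the messenger for Sting1, is not among the 14 and had 6.14 and 6.15. The regulators Socs3 and Ptpn6 had 177 and 259, and 89.8 and 143. The remaining ones were Ifitm6 (3.48 and 8.25 FPKM), Nmi (21.9 and 32.3), Gbp7 (18.1 and 30.7), Sp140 (17.7 and 31.0) and Cd69 (19.6 and 33.02). All 14 had log2 fold changes of 0.47 or more, so the shift of 0.13 for equal FPKM sums could not change their sign.

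Genes listed here as interferon-gamma induced were set beside the members, and which interferon acted on either list was not tested. Of 19 tested, 18 (94.7%) were called higher and 0 lower in the authors' deposited table, where 0.999% of all tested rows were called higher. The median log2 fold change of the 19 was 1.43, from 0.65 to 5.05. Gbp7, a relative of the Gbp genes on this list, was counted with the pathway genes. It was not called (log2 fold change 0.76, q = 0.102 in the authors' deposited table). The FPKM of the interferon-gamma list summed to 712 and 1942, a ratio of 2.73, beside 1.14 for the members. The 3 most abundant were Cxcl9 (191 and 587 FPKM), Irf1 (146 and 305) and Gbp2 (97.4 and 316). The lists were chosen with these results known, and no test of the difference between them was made. The members' highest log2 fold change, 0.64, lay just under the lowest of this list.

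**Figure D4:**
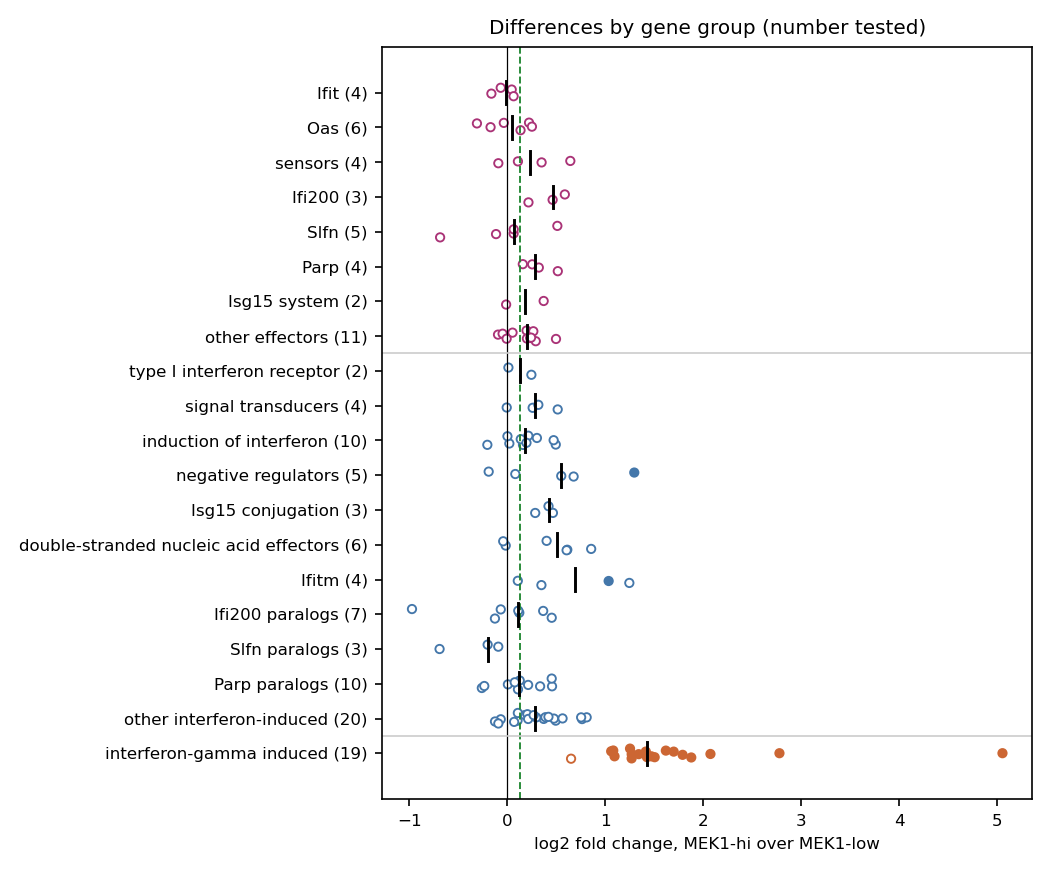
Log2 fold change (MEK1-hi over MEK1-low) of each tested gene, with the interferon-stimulated genes by subgroup at the top, other pathway genes in the middle and interferon-gamma induced genes at the bottom; black bars are medians, filled points have q under 0.05, and the dashed line marks 0 with equal FPKM sums. No point of the 8 upper groups is filled, against 2 in the middle and 18 of 19 at the bottom; the ligands and the Ifit, Oas and Ifi27 paralogs, with 1 or 2 tested genes each, are left out.

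The label of the cells and the content of other cells were checked on marker lists. All 10 macrophage markers were abundant and 0 were called, with summed FPKM of 14725 in the MEK1-low group and 16898 in the MEK1-hi group. The lowest of them was Mertk at 25.2 and 23.1 FPKM. Markers of plasmacytoid dendritic cells, which make much type I interferon, summed to 48.4 and 52.0 FPKM, of which the broadly expressed Tcf4 gave 24.0 and 21.8. Of these 8 markers, 6 had higher values in MEK1-hi (5 with equal FPKM sums), and Siglech had 3.65 and 4.20 FPKM. Pacsin1 had 0.407 and 1.03 FPKM (log2 fold change 1.34, p = 0.0077, q = 0.275 in the authors' deposited table). Cox6a2 had 2.08 and 5.07 (1.28, p = 0.0344, q = 0.683 in the authors' deposited table). T cell markers summed to 8.11 and 14.1 FPKM, with all 5 higher in MEK1-hi under each scaling. Among them Cd8a had 1.15 and 2.88 FPKM (log2 fold change 1.32, p = 0.0047, q = 0.202 in the authors' deposited table). NK cell markers summed to 0.99 and 1.76 FPKM. Of these 5, Ncr1, Klrb1c and Eomes were not tested and lay at or under 0.182 FPKM, Prf1 had 0.151 and 0.732 FPKM (log2 fold change 2.28, p = 0.0067, q = 0.254 in the authors' deposited table), and Gzma had 0.65 and 0.67. Neutrophil markers summed to 56.1 and 63.3 FPKM but divided in direction, with a median log2 fold change of -0.13 over the 4 tested. Csf3r had 26.2 and 36.6 FPKM (p = 0.0462, q = 0.792 in the authors' deposited table), S100a9 15.1 and 11.9, and Retnlg 1.03 and 0.205 (p = 0.0478, q = 0.803 in the authors' deposited table). B cell markers summed to 8.57 and 9.59 FPKM, and endothelial markers to 9.91 and 10.7. Fibroblast markers, which the tumor cells can share, summed to 1164 and 714 FPKM, with all 7 lower in MEK1-hi under each scaling. An unadjusted p under 0.05 was found in 4 of the 7, beside 2.58% of all tested rows with such a p and a lower value. Of all 51 markers found, 0 were called in the authors' deposited table, where 1.32% of all tested rows were, and 0 were listed at 0. The part of these cells in the members' values was not tested.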

How the data were processed

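RNA-seq came from 5 libraries of tumor macrophages. Per the labels' protocols, RNA of high integrity went into stranded poly(A) libraries that were read as pairs of 100 bases. FastQC 0.73, TopHat, Cufflinks, Cuffdiff and mm10 appear in the submitters' processing notes, with roles not stated there. Neither names the gene annotation, nor whether counting used strand, so overlapping genes may share reads.

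The authors deposited 1 Cuffdiff table. It holds pooled FPKM, 1 value per group as deposited, a test statistic that is the authors' score, and the authors' p-value and q-value columns. Adjusting p by Benjamini-Hochberg over the 12311 tested rows gave the deposited q to within rounding. Log2 fold changes were computed from FPKM, because 515 deposited cells held error text. Depth per library is unknown, so no interval is given, and no test over libraries could be made.

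The members and lists were chosen with earlier results of these data known. The text names all members, the main receptor, kinase and factor genes, pathway genes with an unadjusted p under 0.05, the 3 most abundant interferon-gamma genes, and markers. Statistics are given for members with such a p and for the most abundant, highest and lowest member of each subgroup; further values were named after they were seen. Of 108 pathway symbols, 3 repeated a gene, and all 105 genes were found, 2 of them through RefSeq synonyms; 1 further pathway gene is not reported here and was left out of the list's counts and figure. Every 100-base window of each member's longest coding transcript in GENCODE M21 was looked up in transcripts of other genes: 24 of 40 members shared none, and 7 shared over 5%. Loci are the authors', written 1-based. The scripts were tested on simulated data. Software was Python 3.11.15 with pandas 2.3.3, numpy 2.4.6, scipy 1.17.1 and matplotlib 3.10.9.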

Additional observations from a re-analysis of the deposited data

How the results depend on the processing

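No member was called at a q of 0.1, or among rows of at least 1 FPKM with p adjusted again. None was called under the stricter Benjamini-Yekutieli adjustment, or without the 7 members that share over 5% of their windows. With no member called to begin with, these last outcomes were fixed in advance. An unadjusted p under 0.05 was found in 3 members. The members' median log2 fold change ran from 0.16 to 0.20 with pseudocounts of 0.1 and 1, with minimums of 1 and 10 FPKM, without the shared members and with the median of all rows at 0. It moved to 0.027 with equal FPKM sums. Of the pathway genes, 2 were called at q thresholds of 0.05 and 0.1, 15 had an unadjusted p under 0.05, and 0 were called under the Benjamini-Yekutieli adjustment. That adjustment also left 0 interferon-gamma genes called, against 18 at a q under 0.05 or 0.1 and 19 at an unadjusted p under 0.05; 91 rows of the table share the smallest p of 5e-05, and it calls none of them. The alternatives on shared windows, on the interferon-gamma genes, and the Benjamini-Yekutieli adjustment and row filter of the pathway genes were chosen after seeing the data. No row of a member held several symbols, and leaving out such rows kept 2 pathway genes called. No paired analysis was possible because the table holds 1 pooled value per group; for the same reason no library could be left out, so how far 1 library sets any value is not known.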
